A study of Mus musculus with 17 samples.

Results

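The genes described here are the estrogen receptors and a small set of genes known as estrogen-responsive, 6 of the 49585 genes counted in bone marrow endothelial cells of WT mice and of mice in which the Endoglin gene was targeted. Endoglin, encoded by Eng, is a co-receptor for TGF-beta family ligands on endothelium. The 6 genes are Esr1, Esr2 and Gper1, which encode receptors, and Pgr, Greb1 and Nrip1, which are textbook targets of estrogen receptor alpha. Esr1 was chosen by its own counts in the KO libraries, so its difference between genotypes is given as a description with no test. The other 5 were added for their known link to the receptor, with earlier results of these data known.

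RNA was sequenced from 17 libraries of cells sorted as CD45-, Ter119-, CD31+ and Sca1+ from crushed long bones (the series' design text lists the gate without Sca1). KO animals were of the line Cdh5:CreERT2-Engf/f: CreERT2 under the endothelial Cdh5 promoter, and an Eng allele with loxP sites around exons 5 and 6. All 17 libraries carry the label of tamoxifen injection, WT included. Animals received tamoxifen when 8 weeks old, and sorting followed 2 or 4 weeks later. The 2-week groups are 4 WT and 4 KO libraries with 2 of each sex per genotype, and the 4-week groups are 5 WT (2 females) and 4 KO (1 female). The labels do not say whether WT animals carried the Cre transgene or the loxP allele, or whether a library is 1 animal, so p-values measure the spread between these libraries.

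Esr1 encodes estrogen receptor alpha and Esr2 encodes estrogen receptor beta, nuclear receptors that bind estradiol, leave a complex with HSP90 chaperones and bind DNA at estrogen response elements. Gper1 encodes a membrane receptor coupled to G proteins. Tamoxifen is itself a ligand of estrogen receptor alpha, acting against or for it depending on the tissue. CreERT2 is a fusion of Cre with the ligand-binding domain of human estrogen receptor alpha, mutated so that it answers to tamoxifen metabolites. Reads of such a fusion and reads of Esr1 itself cannot be told apart in counts per gene, and whether WT libraries could hold reads of the fusion is not known, since the labels name the transgene for the KO line alone.

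Total counts per library were 20477400 to 40882715, and a count of 3, taken as the detection floor, was 0.0734 to 0.147 CPM (counts scaled to a common library total). The 8 endothelial markers were above the floor in every library, among them Cdh5 (VE-cadherin) at 190 to 323 CPM at 2 weeks and 583 to 759 CPM at 4 weeks. Eng, the targeted gene, was 705 to 1307 CPM in WT and 225 to 347 CPM in KO at 2 weeks, and 2400 to 2735 against 274 to 1647 CPM at 4 weeks. It was therefore reduced and not at 0 in the KO libraries, and least so in 4-week KO m2, at 1647 CPM, with f2 next at 873 CPM. Eng was lower in KO over both times by edgeR's quasi-likelihood test (log2 fold change -1.83, SE 0.31, adjusted p = 0.0378), a call that was lost without any one of 10 libraries or with quality weights in voom. At 2 weeks, 10886 to 13583 genes had a count, against 15996 to 21235 at 4 weeks, so genes of low level drop to 0 more often in the 2-week libraries. Libraries m2 and m3 of the 2-week KO group held 3810 and 2845 CPM in 8 neutrophil markers, against 22.6 to 238 CPM in the other 6 libraries of that time.

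The start regions are shown because an estrogen response element is read in DNA letters, and these genes differ in whether such letters lie there. Each window is the 250 bases before and 50 after a RefSeq gene start on GRCm38.p6, 5′ to 3′ on the gene's strand, and capitals mark a half-site (GGTCA, or TGACC on the other strand).
Esr1, chr10:4611739-4612038 (+): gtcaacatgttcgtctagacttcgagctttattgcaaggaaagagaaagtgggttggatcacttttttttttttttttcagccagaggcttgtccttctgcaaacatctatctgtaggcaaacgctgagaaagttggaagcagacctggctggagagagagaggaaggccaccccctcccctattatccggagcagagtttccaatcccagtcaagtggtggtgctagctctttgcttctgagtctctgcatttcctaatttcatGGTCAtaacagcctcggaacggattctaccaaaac
Esr1, second start, chr10:4709908-4710207 (+): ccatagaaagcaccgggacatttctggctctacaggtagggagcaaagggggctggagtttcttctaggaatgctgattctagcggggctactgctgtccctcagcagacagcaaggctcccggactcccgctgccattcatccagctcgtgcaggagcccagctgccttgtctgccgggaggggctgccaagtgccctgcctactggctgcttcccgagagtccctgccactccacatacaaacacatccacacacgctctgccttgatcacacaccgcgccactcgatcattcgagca
Gper1, chr5:139422929-139423228 (+): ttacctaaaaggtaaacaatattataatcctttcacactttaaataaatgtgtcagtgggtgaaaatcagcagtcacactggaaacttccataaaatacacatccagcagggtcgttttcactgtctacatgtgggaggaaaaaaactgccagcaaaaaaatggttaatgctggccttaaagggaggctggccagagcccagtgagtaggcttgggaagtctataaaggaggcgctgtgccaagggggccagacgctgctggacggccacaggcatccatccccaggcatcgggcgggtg
Greb1, chr12:16757190-16757489 (-): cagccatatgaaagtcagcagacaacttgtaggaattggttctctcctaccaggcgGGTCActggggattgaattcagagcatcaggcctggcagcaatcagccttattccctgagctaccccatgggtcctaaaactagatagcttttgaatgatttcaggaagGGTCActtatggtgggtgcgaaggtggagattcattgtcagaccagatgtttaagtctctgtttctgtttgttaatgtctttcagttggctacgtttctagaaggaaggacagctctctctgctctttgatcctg
Nrip1, chr16:76373778-76374077 (-): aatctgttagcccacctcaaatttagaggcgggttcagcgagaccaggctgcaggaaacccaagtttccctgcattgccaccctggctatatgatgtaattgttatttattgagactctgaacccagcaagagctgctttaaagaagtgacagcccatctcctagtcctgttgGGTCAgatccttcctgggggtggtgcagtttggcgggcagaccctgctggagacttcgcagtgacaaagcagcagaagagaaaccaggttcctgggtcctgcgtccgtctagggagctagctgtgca
All 6 genes matched, with 9 windows in all, and 5 of the 9 held a half-site. Of all 32851 windows, 40.5% held one, and of 55 windows of the estrogen-responsive gene lists 41.8% did. The full element GGTCANNNTGACC, which contains both half-site spellings, was in 0.07% of all windows and in none of the 9. These are matches of letters in one short window, and they are no evidence of binding or of its absence.

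Esr1 spans chr10:4611593-5005614 (+) in GENCODE M21 on GRCm38, and the sum of its exons is 13661 bases. In 2-week WT its count was 0 in all 4 libraries. In 2-week KO the counts were 128 in f1, 238 in f4, 197 in m2 and 249 in m3. In 4-week WT they were 71 in f, 0 in f3, 0 in m1, 3 in m2 and 59 in m3, and in 4-week KO 100 in f2, 213 in m1, 91 in m2 and 221 in m3. Every KO library was therefore above every WT library of its time, while 2 of the 5 WT libraries at 4 weeks also held Esr1 above the floor. As CPM, 2-week KO held 6.32 ± 1.03 (SD, n = 4), 4-week WT 0.922 ± 1.22 (SD, n = 5) and 4-week KO 6.15 ± 2.41 (SD, n = 4). The lowest 2-week KO library was at least 52.1-fold higher than a WT library could be with 3 counts. At 4 weeks the lowest KO library (m2, 3.40 CPM) was 1.41-fold above the highest WT library (m3, 2.41 CPM). The 2 KO groups overlapped with each other, from 4.79 to 7.01 CPM and from 3.40 to 8.38 CPM.

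**Figure D1:**
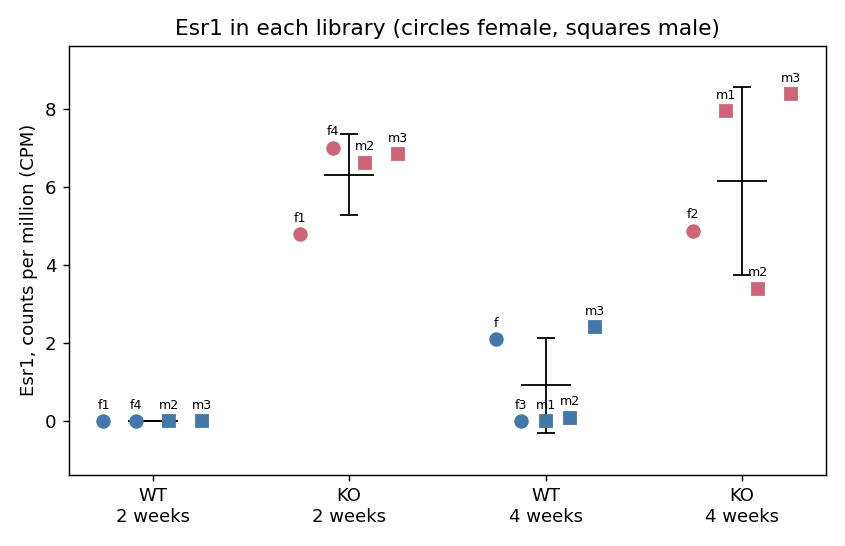
Esr1 in CPM (vertical axis) for each library, by genotype and weeks after tamoxifen; circles are females, squares are males, and the black bars are the group mean with 1 SD. All 8 KO libraries sit between 3.40 and 8.38 CPM, above the WT libraries of their time, of which the highest is 2.41 CPM.

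The 2-week KO libraries held Esr1 more evenly than most genes of a like level. Its coefficient of variation there was 16.3%. The median was 127% over the 1959 genes with a mean within 1.5-fold of it, and 36 of those genes had a lower value. Only 20.5% of those genes were above the floor in all 4 libraries, but detection in every KO library is what chose Esr1, so this is a description. At 4 weeks its coefficient was 39.1%, against a median of 46.9% over 1924 genes. Of 13697 different runs of 50 bases in Esr1 transcripts, 46 were also in transcripts of another gene (Ppp2r5a), and none was in the other 5 members.

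Esr1 was also set beside the genes of the deletion itself. At 4 weeks the 4 KO libraries had the order m3, m1, f2, m2 from highest to lowest Esr1, and Eng ran the other way, at 274, 322, 873 and 1647 CPM. At 2 weeks the KO libraries did not follow that order: f1 was lowest in Esr1 (4.79 CPM) and also in Eng (225 CPM). A relation of Esr1 to Eng over the 8 KO libraries, centred on their time, was computed after the order had been seen, and it did not pass: Pearson's r was -0.85 (exact permutation within time, two-sided, p = 0.0972, adjusted p = 0.194 over 2 relations) and Spearman's rho was -0.74 (exact permutation p = 0.229, adjusted p = 0.458). Without the 2 libraries farthest from the median, r was -0.53. The other relation, to Cdh5, had an r of -0.16 (exact permutation p = 0.592, adjusted p = 0.592) and a rho of -0.05 (exact permutation p = 0.894, adjusted p = 0.894). The KO counts that chose Esr1 enter both relations, so they support nothing and the order is a description.

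**Figure D2:**
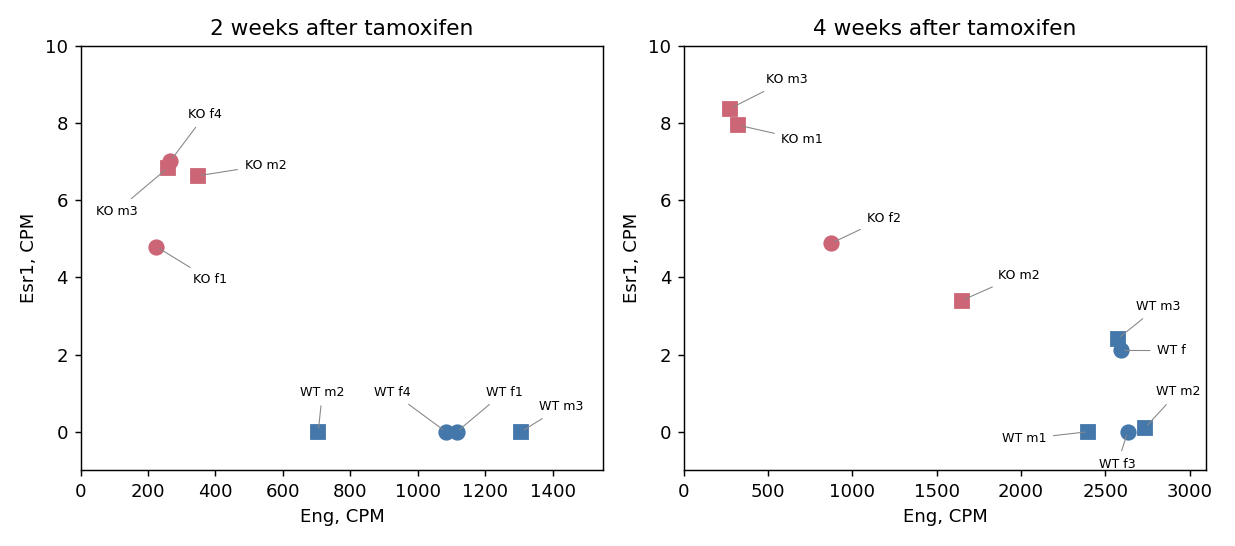
Esr1 against Eng, both in CPM, for each library at 2 weeks (left) and 4 weeks (right); red is KO, blue is WT, circles are females, squares are males, and the horizontal scales differ. At 4 weeks the KO libraries run from high Esr1 and low Eng (m3, 8.38 and 274 CPM) to low Esr1 and high Eng (m2, 3.40 and 1647 CPM).

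Markers of cells that the gate should remove were also read. Marrow stromal cells and osteoblasts are known to express Esr1 and lack CD31, by which the cells were sorted. The summed level of 9 of their markers was 1104 to 1769 CPM in WT and 1031 to 1261 CPM in KO at 2 weeks, and 1365 to 3191 against 1022 to 2868 CPM at 4 weeks. The ranges of the genotypes overlapped at both times. Most of that sum was Cxcl12, a chemokine, at 834 to 1482 CPM at 2 weeks, and single markers differed from it. Lepr, a marker of marrow stromal cells, was 0.0790 to 11.96 CPM in 2-week WT and 0.0749 to 42.6 CPM in 2-week KO, with KO f4 (33.9 CPM) and m3 above every WT library. Col1a2, a collagen gene, was 0.0245 to 42.0 CPM in 2-week WT and 16.9 to 63.4 CPM in 2-week KO, with KO f1 and f4 above every WT library. Alpl, alkaline phosphatase of osteoblasts, was 32.5 to 220 CPM in 2-week WT and 47.5 to 106 CPM in 2-week KO. Over the list, 2 of the 7 markers tested had a log2 fold change above 0 at 2 weeks (median -0.38, against -0.06 over all genes), and 1 of 8 at 4 weeks (median -0.63, against 0.01). Of the osteoblast genes, Col1a1 and Alpl were above the floor in all 17 libraries, Bglap in 14 and Sp7 in none. Blood cells should be removed by the CD45- and Ter119- gate. Erythroid markers summed to 61.4 to 180 CPM in WT and 278 to 1240 CPM in KO at 2 weeks, and to 165 to 1267 against 611 to 2889 CPM at 4 weeks. Neutrophil markers were 22.6 to 104 CPM in WT and 94.9 to 3810 CPM in KO at 2 weeks. The part of these cells in any difference given here was not tested, and in bulk RNA fewer cells of a type and less RNA per cell cannot be told apart.

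Genes with the on-and-off pattern of Esr1 were counted as a description, since detection in the KO libraries is what chose Esr1. Of 32872 genes at 0 in all 4 WT libraries at 2 weeks, 5 were above the floor in all 4 KO libraries of that time, and 4 of these in all 8 KO libraries: Esr1, Hdac6, Ces2e and Rac2. Esr1 alone of the 4 had no overlap between genotypes at 4 weeks too. The 5 genes whose time-centred log2 CPM followed Esr1 most closely over the 17 libraries, of 13514, were Rac2 (r = 0.89), Bag2 (0.81), Eed (0.80), Glrx2 (0.79) and Ces2e (0.77). Rac2, a GTPase of blood cells, was 0 in 2-week WT and 13.3 to 101 CPM in 2-week KO. Eng had the lowest r of all (-0.80), Gper1 had -0.62, Nrip1 -0.03 and Cdh5 -0.26. These r values are dominated by the step between genotypes and are given as a likeness.

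Gper1 was above the floor in every WT library and nearly missing in KO at 2 weeks, and its genotypes overlapped at 4 weeks. It lies at chr5:139423151-139427800 (+), inside the span of 3110082I17Rik with no shared exon. Its counts in 2-week WT were 894 in f1, 126 in f4, 2353 in m2 and 122 in m3. In 2-week KO they were 0 in f1, 1 in f4, 0 in m2 and 14 in m3, so only m3 was above the floor. The lowest WT library (f4, 3.08 CPM) lay 8.01-fold above the highest KO library (m3, 0.385 CPM), and the WT libraries themselves spread from 3.08 to 72.2 CPM. At 4 weeks WT held 657, 408, 159, 876 and 484 counts in f, f3, m1, m2 and m3, and KO held 524, 266, 590 and 529 in f2, m1, m2 and m3. These are 6.23 to 28.1 CPM in WT and 9.92 to 25.6 CPM in KO, which overlap in full. 3110082I17Rik, whose span holds Gper1, was 5.81 to 42.8 CPM in WT and 32.4 to 54.5 CPM in KO at 2 weeks.

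In edgeR's quasi-likelihood test the 2-week difference of Gper1 had a log2 fold change of -8.38 (SE 2.50), with an unadjusted p of 0.0124 and an adjusted p of 1 over 10477 genes. With 2 KO libraries at 0, the size of that fold depends on the prior count. At 4 weeks the log2 fold change was 0.16 (SE 0.44, adjusted p = 1). The difference between the 2 effects was 7.98 (SE 1.91), with an edgeR adjusted p of 0.190 over 13515 genes. Over both times together the log2 fold change was -3.88 (SE 0.98, adjusted p = 0.190). These calls turned on the tool and on single libraries: DESeq2 gave adjusted p = 0.000184 at 2 weeks, and without KO m3 edgeR gave 0.0407 over both times and 0.0354 for the difference between times. At 2 weeks its log2 fold change was -10.5 to -7.40 over all alternatives.

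Nrip1 encodes RIP140, a cofactor that binds liganded nuclear receptors, and is itself induced by estrogen in breast cancer cells. It lies at chr16:76287400-76373827 (-). In 2-week WT its counts were 40 in f1, 1052 in f4, 0 in m2 and 10 in m3, and in 2-week KO 0 in f1, 36 in f4, 0 in m2 and 667 in m3. One library of each genotype thus held nearly all its counts, and the ranges were alike, 0 to 25.7 CPM in WT and 0 to 18.3 CPM in KO. At 4 weeks the counts were 244, 389, 160, 188 and 215 in WT f, f3, m1, m2 and m3, and 229, 312, 258 and 318 in KO f2, m1, m2 and m3. That is 6.04 to 14.4 CPM in WT and 9.64 to 12.1 CPM in KO, with 4 of the 5 WT libraries below every KO library. The log2 fold change was 0.71 (SE 9.48) at 2 weeks and 0.49 (SE 0.36) at 4 weeks, both with an edgeR adjusted p of 1. The 2-week value changed sign under 4 of the other settings and without any one of 3 libraries, so it carries no direction.

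**Figure D3:**
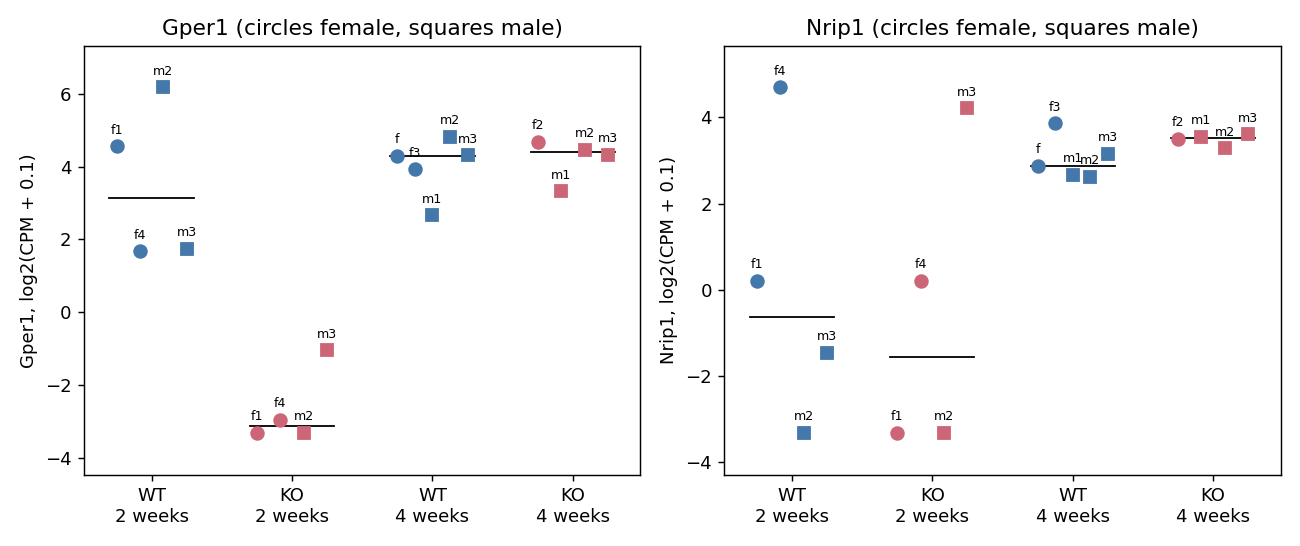
Gper1 (left) and Nrip1 (right) as log2(CPM + 0.1) for each library by genotype and weeks after tamoxifen; circles are females, squares are males, and the black lines are group medians. Gper1 is 3.08 to 72.2 CPM in 2-week WT and at most 0.385 CPM in 2-week KO, while in 2-week Nrip1 1 library of each genotype stands far above its group (25.7 and 18.3 CPM).

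The 3 remaining members were at or near 0. Esr2, at chr12:76120419-76177259 (-), had 1 count in each of 2 libraries (4-week WT f and m3) and 0 in the other 15. Greb1, among the most estrogen-induced genes of breast cancer cells, had 0 counts in all 17 libraries, and 561 of the 9792 different runs of 50 bases in its transcripts were also in transcripts of other genes. Pgr, the progesterone receptor and a classical target of estrogen receptor alpha, had 18 counts in 4-week KO m1 and 0 in every other library. A count of 0 allows up to 3 counts, or 0.0734 to 0.147 CPM in these libraries, and this covers counting error only. No test was run on these 3, because none passed the filter on low counts.

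Per length of exon, the levels of the receptor genes can be set side by side, as CPM per kilobase. In 4-week WT the glucocorticoid receptor gene Nr3c1 held 12.95 ± 3.03 (SD, n = 5), Gper1 6.995 ± 3.14, Esrra, an orphan receptor related to estrogen receptors, 1.75 ± 0.708, and Esr1 0.0675 ± 0.0896. In 4-week KO the order was the same, with Nr3c1 at 11.35 ± 5.49 (SD, n = 4), Gper1 at 7.65 ± 2.65, Esrra at 2.07 ± 0.447 and Esr1 at 0.450 ± 0.176. Neighbours overlapped in their ranges at Nr3c1 and Gper1 in both genotypes, while Gper1 and Esrra did so in WT only, and Esrra and Esr1 in neither. The place of Esr1 in this order rests on dividing by all 13661 bases of its exons. If the KO counts came from a part of the gene, as reads of a fusion with the ligand-binding domain would, its level per length would be higher and its place could differ. In 2-week KO Gper1 was below Esr1 on this scale, at 0.0408 ± 0.0741 against 0.463 ± 0.0754 CPM per kilobase.

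**Figure D4:**
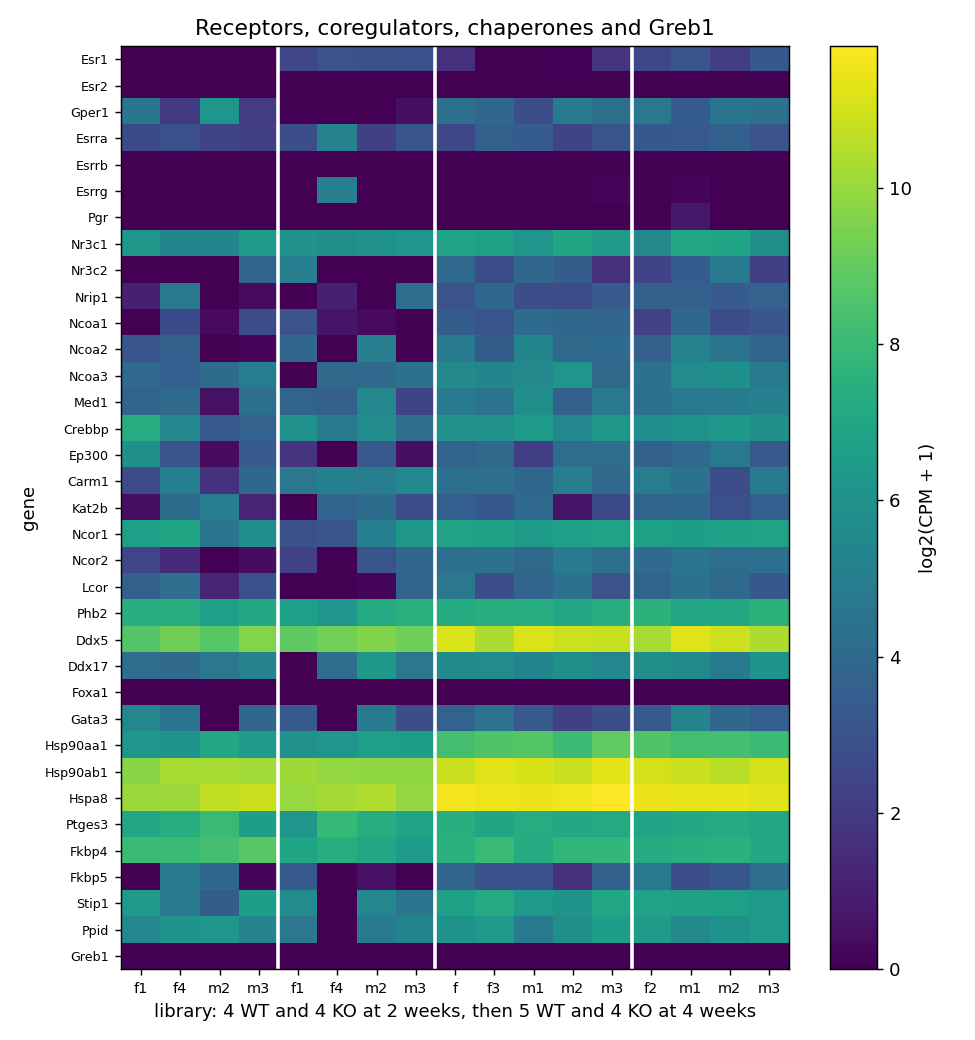
Level of receptor, coregulator and chaperone genes and of Greb1 (rows) in each of the 17 libraries (columns), as log2(CPM + 1); white lines part the 4 groups. Esr1 is faint but present in all KO libraries, Gper1 is dark in 2-week KO, Esr2 and Greb1 are dark throughout, and more rows are dark in the 2-week columns.

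To see whether a wider set moved with genotype, 95 genes in 7 lists were taken from general knowledge of the pathway: receptors, coregulators, chaperones, classical targets, uterine targets, endothelial targets and enzymes of estrogen metabolism. At 2 weeks 57 of them were tested besides Esr1, and none was called at an adjusted p of 0.05 by edgeR, as among all 10477 genes (0% called). Eng, the targeted gene, was not called in that fit either (log2 fold change -1.96). The absence of a call there is therefore not evidence of no change. Unadjusted p was under 0.05 for 4 of the 57 and for 276 of all genes (2.63%). Their median log2 fold change was -0.29, against -0.06 over all genes, and 20 of 57 were above 0. DESeq2 called 151 genes, 3 of them from the lists (Gper1, Fkbp4 and Sgk1). The lists were chosen with earlier results known, and these counts describe them without a test of the list.

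Among the 8 chaperones, which hold steroid receptors ready for ligand, all 8 had a log2 fold change under 0 at 2 weeks, with a median of -0.61, against -0.06 over all genes. Their summed level overlapped between genotypes, at 2495 to 3778 CPM in WT and 2254 to 2736 CPM in KO. In KO f4 Stip1 had 1 count and Ppid and Fkbp5 had 0, and Fkbp5 was also at 0 in KO m3 and WT f1. The smallest p was that of Fkbp4, which encodes FKBP52, a co-chaperone of steroid receptors. Its level was 265, 246, 324 and 429 CPM in WT f1, f4, m2 and m3, and 121, 163, 133 and 91.8 CPM in KO f1, f4, m2 and m3. The genotypes did not overlap, and the log2 fold change was -1.30 (SE 0.26, edgeR adjusted p = 0.964). At 4 weeks Fkbp4 was 153 to 247 CPM in WT and 139 to 184 CPM in KO, which overlap, and the fitted log2 change was -0.32 (SE 0.18, adjusted p = 1). Over both times it was -0.82 (SE 0.16, edgeR adjusted p = 0.0759), and leaving out WT f1, WT f4 or KO f4 of 2 weeks, one at a time, gave 0.0460 to 0.0493.

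Sgk1, a kinase induced by steroid hormones and counted among the classical targets, was 716, 1254, 1120 and 757 CPM in 2-week WT f1, f4, m2 and m3. In KO f1, f4, m2 and m3 it was 647, 599, 405 and 534 CPM. All KO libraries were lower, with a log2 fold change of -0.82 (SE 0.21, edgeR adjusted p = 1). At 4 weeks it was 1317 to 1935 CPM in WT and 1450 to 1860 CPM in KO, with a log2 fold change of -0.10 (SE 0.11). Among the 57 tested list genes, 4 had every KO library below every WT library at 2 weeks (Sgk1, Fkbp4, Rara and Gper1), against 1.78% of all genes, and none had every KO library above, against 1.58%.

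Of the other lists, all but the enzymes held genes in both directions at 2 weeks. Of 4 receptors besides Esr1, 2 were above 0 (median -2.08, with Gper1 at -8.38), of 16 coregulators 7 (median -0.18), of 13 classical targets 5 (median -0.58), of 6 uterine targets 3 (median -0.28), of 8 endothelial targets 4 (median 0.17) and of 3 enzymes of estrogen metabolism none (median -0.77), with no gene called. The most abundant endothelial targets were close in both genotypes. Cav1, the caveolar protein that anchors membrane estrogen receptor, was 4533 ± 504 CPM in WT and 4337 ± 372 CPM in KO (SD, n = 4 each), with a log2 change of -0.06 (SE 0.10). Kdr, the main VEGF receptor, was 546 ± 172 and 496 ± 87.9 CPM, with -0.13 (SE 0.26). At 4 weeks Cav1 had -0.10 (SE 0.14) and Kdr -0.43 (SE 0.61). Of the abundant genes of the other lists, Igfbp4, a binding protein of insulin-like growth factors, had -0.67 (SE 0.69) at 2 weeks and -0.32 (SE 0.33) at 4 weeks. Phb2, a prohibitin known as a repressor of estrogen receptor activity, had -0.28 (SE 0.36) and 0.06 (SE 0.17). Ramp3, a receptor accessory protein, had -0.61 (SE 0.70) and -0.35 (SE 0.37). Each of these had an edgeR adjusted p of 1.

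The uterine targets included Ltf, lactoferrin, which estrogen induces in uterus and which neutrophils carry in granules. It was 0, 0, 0 and 5.86 CPM in 2-week WT f1, f4, m2 and m3, and 12.02, 0, 294 and 305 CPM in KO f1, f4, m2 and m3. The 2 high libraries are those with 3810 and 2845 CPM in neutrophil markers. Its log2 fold change was 7.53 (SE 2.47, edgeR adjusted p = 1), and at 4 weeks it was 0.02 (SE 1.19), with 0 to 13.2 CPM in WT and 2.09 to 5.57 CPM in KO. The part of neutrophil RNA in the Ltf counts was not tested.

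At 4 weeks 73 list genes were tested besides Esr1, and again none was called by edgeR, as among all 15209 genes (0% called, with 422 genes or 2.77% at an unadjusted p under 0.05). Eng was again not called, at a log2 fold change of -1.72. DESeq2 called 17 genes, none from the lists. Of the 73, 4 had an unadjusted p under 0.05, 39 were above 0, and their median log2 fold change was 0.02, against 0.01 over all genes. Both Ctsd and Hsd17b4 had every KO library above every WT library, against 0.664% of all genes, and no list gene had every KO library below, against 0.526%.

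Ctsd, which encodes the lysosomal protease cathepsin D and is a classical target, was 302, 344, 276, 288 and 322 CPM in 4-week WT f, f3, m1, m2 and m3. In KO f2, m1, m2 and m3 it was 367, 373, 420 and 449 CPM. Its log2 fold change was 0.41 (SE 0.13, edgeR adjusted p = 1). At 2 weeks it was 129 to 245 CPM in WT and 126 to 166 CPM in KO, with a log2 fold change of -0.40 (SE 0.25), so the direction was not that of 4 weeks. Its exons overlap those of Gm49369.

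Cdkn1a, the cell cycle inhibitor p21, was 604, 441, 693, 455 and 907 CPM in 4-week WT f, f3, m1, m2 and m3, and 1289, 1042, 817 and 1257 CPM in KO f2, m1, m2 and m3. The genotypes overlapped at WT m3 and KO m2, and the log2 fold change was 0.85 (SE 0.25, edgeR adjusted p = 1). Thbd, thrombomodulin, an anticoagulant receptor of endothelium, was 440 to 950 CPM in WT and 231 to 525 CPM in KO, and the fitted log2 change was -0.83 (SE 0.29, adjusted p = 1). Among the other lists at 4 weeks, the 8 chaperones had a median of -0.14 and the 16 coregulators tested one of 0.05, close to that of all genes.

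**Figure D5:**
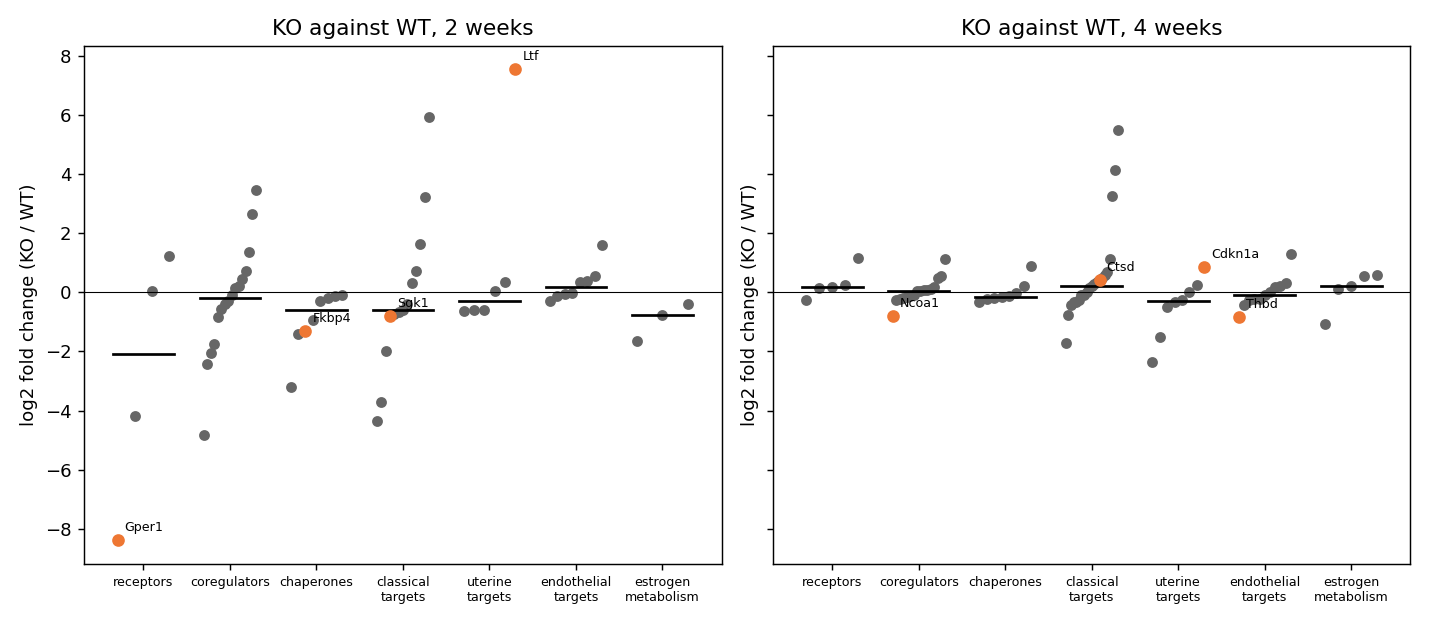
Log2 fold change of KO over WT (vertical axis) for each tested gene of the 7 lists at 2 weeks (left) and 4 weeks (right), Esr1 left out; orange points with names have an unadjusted p under 0.05 and black bars are list medians. No gene of either panel passed the adjusted threshold, and the named genes at 2 weeks (Gper1, Fkbp4, Sgk1, Ltf) are not those named at 4 weeks.

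With both times in one fit, edgeR called 13 of 13515 genes between genotypes (0.0962%), Eng among them, and none of the 67 list genes tested. Unadjusted p was under 0.05 for 10 of the 67 (14.9%) and for 1502 of all genes (11.1%). DESeq2 called 985 genes, 5 of them from the lists (Gper1, Fkbp4, Sgk1, Inhbb and Siah2), of which Inhbb and Siah2 are at 0 in all libraries of 1 genotype at 2 weeks. Without the neutrophil-rich KO libraries m2 and m3 of 2 weeks, edgeR called 325 genes, 3 of them from the lists (Gper1, Ncor1 and Lcor). Ncor1 and Lcor encode corepressors of nuclear receptors. The change of the KO effect from 2 to 4 weeks was called for 14 genes (0.104%) and for none of the 67, with an unadjusted p under 0.05 for 7 of them and for 1281 of all genes (9.48%). DESeq2 called 912 genes there, 3 of them from the lists (Gper1, Inhbb and Siah2).

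Between times, list genes were called at about the rate of all genes. The labels give no batch, so time and batch cannot be told apart in the differences between times given here. Of 68 list genes tested between 4 and 2 weeks, genotypes averaged, 10 were higher and 1 lower at 4 weeks by edgeR, where 14.8% of all genes were called. The median log2 fold change was 0.85 for the 68 and 0.40 for all genes, and the 4-week libraries detect more genes, so changes are to be read against that shift. The 8 endothelial markers also had a median of 1.02, with 4 called higher, and summed to 3744 to 5774 CPM at 2 weeks and 8519 to 11383 CPM at 4 weeks; their part in these changes was not tested. Hsp90aa1 and Hsp90ab1, the cytosolic HSP90 genes, rose by 1.69 (SE 0.17, adjusted p = 1.47e-05) and 0.67 (SE 0.12, adjusted p = 0.00135) on the log2 scale. Hspa8, a constitutive HSP70, rose by 0.85 (SE 0.12, adjusted p = 0.000303). Hsp90aa1 ran from 61.0 to 128 CPM at 2 weeks and from 270 to 490 CPM at 4 weeks, with no overlap.

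Ddx5, an RNA helicase that acts as a coregulator of the receptor, rose by 1.26 (SE 0.17, adjusted p = 0.000184). It was 400 to 776.5 CPM at 2 weeks and 1217 to 2390 CPM at 4 weeks. Gadd45g, a stress-induced gene, rose by 3.41 (SE 0.47), and Icam1, an endothelial adhesion molecule, by 2.88 (SE 0.34). Sgk1, Ctsd and Thbd rose by 0.86 (SE 0.12), 0.76 (SE 0.14) and 1.10 (SE 0.21), each with an edgeR adjusted p of at most 0.00283, and for Thbd the call was lost in voom with quality weights (adjusted p = 0.0745). Ccnd1, cyclin D1 and a classical target, was the one list gene that fell, by 1.25 (SE 0.23, adjusted p = 0.0019). It was 120 to 337 CPM at 2 weeks and 68.4 to 163 CPM at 4 weeks. Gper1 rose by 3.32 (SE 0.96, adjusted p = 0.0320), a value set by its 2-week KO libraries near 0. Its call was lost without any one of 8 libraries, with adjusted p of 0.0505 to 0.0597. The fits across all genes also give Esr1 a value between times, which is not used because its KO counts chose it (not called by edgeR, adjusted p = 0.0663, and called by DESeq2, adjusted p = 0.0204). Its KO means were 6.32 CPM at 2 weeks and 6.15 CPM at 4 weeks, and its WT libraries were at 0 at 2 weeks and at 0 to 2.41 CPM at 4 weeks. Nrip1 had 0.53 (SE 1.44, adjusted p = 0.883). With 1 library left out it ran from 0.22 to 4.74, the latter without 2-week KO m3, and voom gave 4.17 (adjusted p = 0.0340).

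Between females and males edgeR called 4 of 13515 genes (0.0296%) and none of the 68 list genes, none of which had an unadjusted p under 0.05 (220 of all genes did). DESeq2 called 75 genes and none from the lists. Gper1 had a log2 difference, female over male, of -0.84 (SE 0.90) and Nrip1 of 0.54 (SE 1.93), each with an edgeR adjusted p of 1, and the fitted value of Esr1, given as a description, was -0.05 (SE 1.21). In 2-week KO the females held 4.79 and 7.01 CPM of Esr1 and the males 6.63 and 6.85 CPM, which overlap.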

How the data were processed

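The deposited files hold raw counts per gene, 1 file per library, whole numbers that the authors did not normalize as far as the values show. Per the submitters' processing notes, cutadapt, STAR and HTSeq 0.6.1p1 were used with builds GRCm38 and mm10; the annotation and strand setting are not given in the sources used here, so reads of overlapping or antisense genes may have been split or lost. SmartSeq2 libraries carry no molecular identifiers, so floors cover counting error only.

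Symbols and positions came from GENCODE M21 on GRCm38 (49326 of 49585 identifiers matched), and 142 of 143 list symbols matched. Counts were tested with edgeR 4.0.16 in R 4.3.3: filterByExpr on genotype, TMM scaling, robust quasi-likelihood fits with a sex term, and Benjamini-Hochberg adjustment over all genes of a fit. Each time was fitted alone, and all 17 libraries jointly with a mean per group for effects over both times, their difference, time and sex. SE is the log2 fold change over the root of F. DESeq2 1.42.0, limma 3.58.1 (voom with quality weights), other scalings, filters and designs, and leaving out libraries were alternatives, and the fit was tested on simulated counts. Promoter windows are from RefSeq. The members and lists were chosen with earlier results of these data known.

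Named genes were the members, Eng and Cdh5 as checks, list genes past an adjusted p of 0.05, the 3 list genes with the smallest p per genotype comparison, the 3 of each list with the highest mean CPM and, for likeness to Esr1, the 5 genes with the highest r (log2 CPM, prior count 2). Rara, Ltf, Lcor, Siah2, Hdac6 and the single stromal markers were named after their values were seen. Of the list genes, 2 are counted in the lists and not reported here by name.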

Additional observations from a re-analysis of the deposited data

Results flagged for a closer look

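The values here are those of 1 library far from the others of its group, found by Dixon's gap rule among 48 combinations of 15 genes and a group. There were 6. The rule flags about 1 in 20 groups by chance where values are normally spread, a rate that does not hold for counts with libraries at 0, and for Pgr and Ltf below it flags any group with all but 1 library at 0.

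Among the members, Nrip1 was 25.7 CPM in 2-week WT f4, with the next library at 1.05 CPM, and 18.3 CPM in 2-week KO m3, with the next at 1.06 CPM. Gper1 was 0.385 CPM in 2-week KO m3, with the next at 0.0295 CPM, which is 1 count. Pgr was 0.672 CPM in 4-week KO m1, with the other 3 KO libraries at 0. Among the genes set beside them, Cdh5 was 323 CPM in 2-week KO f1, with the next at 199.5 CPM, and Ltf was 5.86 CPM in 2-week WT m3, with the other 3 at 0. KO m3 at 2 weeks was the outlying library for both Gper1 and Nrip1, and it also held 2845 CPM of neutrophil markers, while KO m2 of that time held 3810 CPM of them and had 0 counts of both genes. The part of that in these values was not tested.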

How the results depend on the processing

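Counts of calls depended on the tool and on which libraries were in the fit, and the other scalings moved none by over 1.5 times. DESeq2 called 151 genes between genotypes at 2 weeks (3 from the estrogen lists), 17 at 4 weeks, 985 over both times (5 from the lists), 912 for the difference between times (3), 3555 between times (21) and 75 between sexes. Voom with quality weights called 12 at 2 weeks, 8 for the difference between times and 3266 between times (24). Without a low-count filter edgeR called 8 genes over both times, 6 for their difference and 3158 between times, and with at least 10 counts in every library 3, 0, 1291 and, between sexes, 0. With no sex term 30 genes were called over both times, 1 of them from the lists. Without KO libraries m2 and m3 of 2 weeks the calls were 325 over both times (3), 278 for the difference (4, Gper1, Ncor1 and Lcor among them), 3255 between times (20) and 2 between sexes. Each time alone called 0 between sexes.

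The count over both times moved by over 1.5 times without any one of 10 libraries, and that for the difference between times without any one of 14. Leaving out 1 library at a time gave 5 to 62 genes over both times (0 to 1 from the lists), 7 to 52 for the difference (0 to 1), 1312 to 2625 between times (10 to 18) and 2 to 5 between sexes. Without KO m2 or WT f of the 2 and 4 weeks, respectively, the count over both times was 62 and that between times 1312.

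Directions that changed were those of differences near 0 or with a wide error. Nrip1 at 2 weeks was -1.51 by voom, -0.33 with no sex term and -4.62 without KO m2 and m3, and over both times -0.66 by voom and -1.44 without those libraries. With 1 library left out it ran from -4.78 to 4.48 at 2 weeks, from -1.65 to 2.01 over both times, from -3.23 to 5.07 for the difference and from -0.11 to 3.15 between sexes. Gper1 at 4 weeks ran from -0.0640 to 0.48, and between sexes it was 0.40 by voom and 0.26 at 4 weeks alone. Esr1 between sexes was 0.0659 without KO m2 and m3, 0.0631 at 4 weeks alone and -0.94 to 1.003 with 1 library left out. Cdh5 at 4 weeks was 0.0299 with upper quartile scaling and -0.0899 to 0.0389 with 1 library left out. The cause of these changes was not tested.

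Same-numbered libraries did not deviate together (correlations of -0.02 to 0.16), so the numbers were not taken as pairs. With the number as a replicate block, 0 genes were called over both times and 0 for the difference, Nrip1 was -3.17 at 2 weeks and -1.36 over both times, Gper1 was -8.70 at 2 weeks and -4.04 over both times, and Eng had an edgeR adjusted p of 0.0861 over both times.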
